A study of Mus musculus with 6 samples.

Results

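Transcripts of 10 genes from 4 families of RNA-binding proteins were followed in N2A cells, a mouse neuroblastoma line, after knockdown of the unitary pseudogene transcript Pbcas4. They are Elavl1, Elavl2, Elavl3, Elavl4, Rbfox2, Rbfox3, Nova1, Nova2, Ptbp1 and Ptbp2, 10 of the 19938 genes measured by a probe with exactly 1 gene symbol. Where a gene had more than 1 probe, the brightest by mean over the 6 arrays was taken, and Nova1 and Ptbp1 each had a second probe. Cells were transiently transfected with a vector in which the U6 promoter drives a short hairpin RNA, either specific to Pbcas4 (Pbcas4 shRNA, 3 arrays) or with a scramble sequence (scramble, 3 arrays), and total RNA was hybridized to Affymetrix Mouse Gene 1.0 ST arrays. Both conditions went through the same transfection, and the design text calls the 3 arrays of each biological replicates. The hairpins are what sets the conditions apart, with 1 listed for each. Loss of Pbcas4 and other effects of a hairpin sequence therefore cannot be told apart. The first arms of the hairpins are shown 5′ to 3′ with the bases that pair with the second arm in capitals.

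sh-pbcas4: GATCCCTGTTGTGACATGa
sh-scramble control: AGATACTCGATCCCGCGc

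Proteins of the Elavl, Rbfox, Nova and Ptbp families bind short motifs in RNA and decide which exons enter an mRNA, and the Elavl proteins also stabilize mRNAs in the cytoplasm. In developing neurons, loss of Ptbp1, a repressor of neuronal exons, allows productive splicing of its paralog Ptbp2, while Elavl2 to Elavl4, Nova1, Nova2 and Rbfox3 accompany neuronal identity. A switch of this kind would appear at the level of transcripts as a fall of Ptbp1 with a rise of Ptbp2. The deposited data hold 1 value per probe and none for single exons, so inclusion of exons was not measured. As the RNA came from whole wells, fewer cells that express a gene and less RNA per cell cannot be told apart.

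None of the 10 genes passed the test between Pbcas4 shRNA and scramble. On the brightest probe of each gene, all 10 differences were within 0.21 on the log2 scale, up or down. The second probes of Nova1 (-0.61) and Ptbp1 (0.26) differed by more, and they did not pass the test either. By condition mean, 7 genes had the higher value with Pbcas4 shRNA and 3 (Nova1, Ptbp2 and Elavl3) the lower, with a median log2 difference of 0.051 against 0.0031 over all genes. The 2 largest differences were -0.21 for Nova1 and 0.17 for Ptbp1. Limma, a linear model with a shared estimate of the variance, called 0 of the 10 genes and 0% of all genes when an adjusted p under 0.05 and a log2 difference over 0.5 were both required (lowest adjusted p over all probes 0.297). At an unadjusted p under 0.05 it gave 0 of the 10 genes, against 11.7% of all genes. The values of the conditions did not overlap for 1 of the 10 genes, Ptbp1, against 16.8% of all genes. The 95% interval of the difference, not adjusted for the number of genes, lay inside 0.5 on either side of 0 for all 10 genes and held 0 for all 10. Those of the second probes of Nova1 (-1.04 to -0.19) and Ptbp1 (0.026 to 0.49) did not hold 0.

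**Figure D1:**
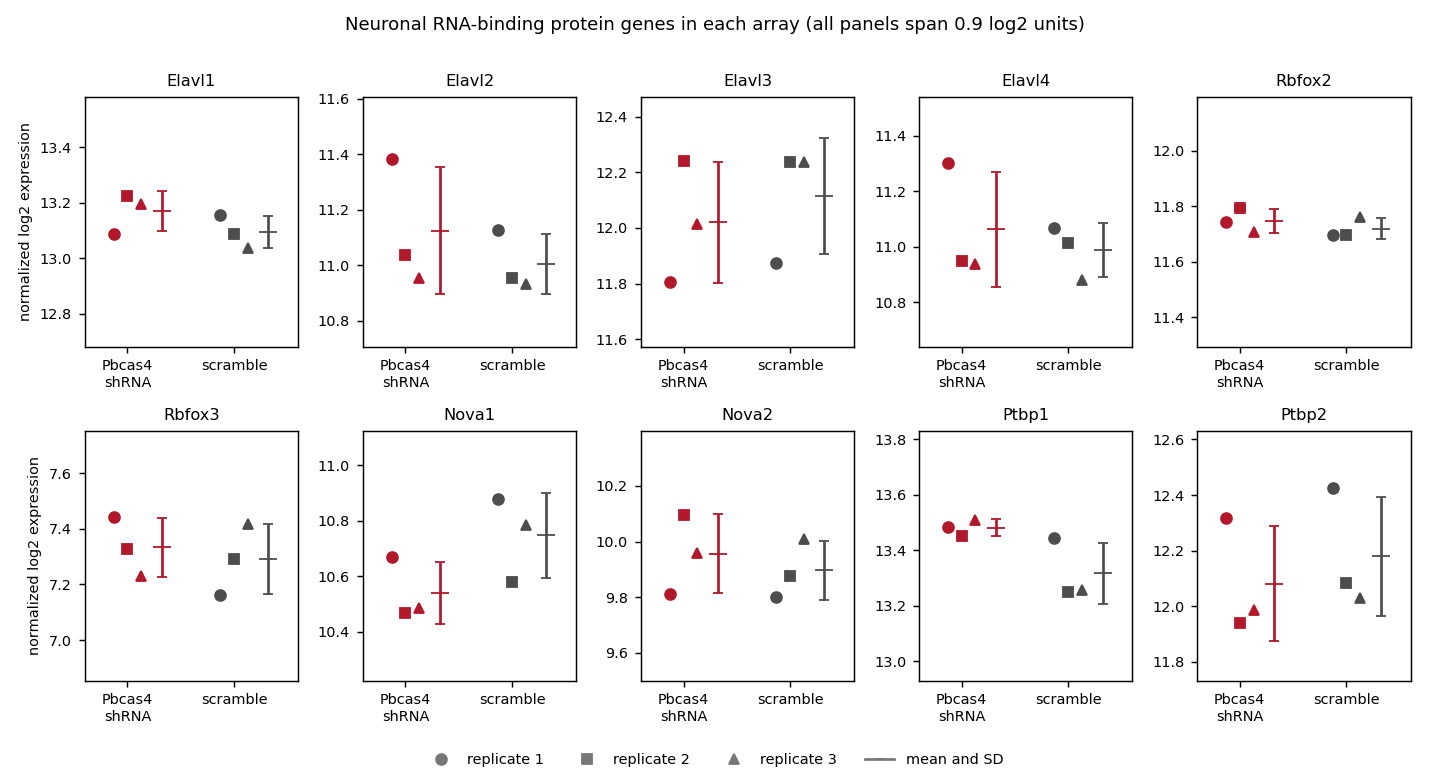
Normalized log2 expression of the 10 genes in each array, with 1 panel per gene, all panels spanning 0.9 log2 units. Symbols are single arrays and bars each condition's mean with its SD; only for Ptbp1 do the Pbcas4 shRNA arrays (13.45 to 13.51) all lie above the scramble arrays (13.25 to 13.44), and the 2 conditions overlap for the other genes.

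The neuronal forms were above the array's low range in N2A cells, with Rbfox3 the exception, as far as values of different probes can be set side by side. Compared with 1015 olfactory receptor genes, which neuroblastoma cells are not expected to use, 9 of the 10 genes had a mean level above 100% of them. Rbfox3, the NeuN antigen of mature neurons, was above 95.9% of them and at the 33.9th percentile of all genes, so that its differences are those of a dim probe. Markers of neuroblastoma and sympathoadrenal cells were mostly bright, with a mean over 12 genes of 10.63 to 10.83 with Pbcas4 shRNA and 11.03 to 11.27 with scramble, but Nefl (6.28 and 6.45) and Nefm (6.42 and 6.38) were dim. The means of the marker lists of other cells overlapped between the conditions: 7.08 to 7.34 and 7.18 to 7.33 for 11 astrocyte and oligodendrocyte genes, 8.31 to 8.42 and 8.20 to 8.36 for 11 muscle genes, and 7.05 to 7.14 and 6.96 to 7.08 for 12 fibroblast and macrophage genes. Of the neuroblastoma markers 4 (33.3%) were below an unadjusted p of 0.05 from limma, against 11.7% of all genes. All 4 were lower with Pbcas4 shRNA: the catecholamine enzyme genes Th (log2 difference -1.08) and Dbh (-1.34), the granin gene Chgb (-1.01) and Stmn2 (-0.35). Below this limit were also 1 muscle gene (9.09%), Tnnt2 (0.34), and 1 fibroblast and macrophage gene (8.33%), Pdgfra (0.55). Both shares were smaller than that of all genes. The probe annotation names no probe for Pbcas4, so its level was not analysed here. Scramble replicate 1 stood apart from the other scramble arrays. Over all probes its correlation with the Pbcas4 shRNA arrays was 0.990 to 0.993, and with the other scramble arrays it was 0.987 and 0.988, and values without it are given for each gene below. It was not the only such array. Pbcas4 shRNA replicates 1 and 2 correlated at 0.989, below the 0.990 to 0.991 of Pbcas4 shRNA replicate 2 with the scramble arrays.

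Ptbp1, the polypyrimidine tract binding protein of most non-neuronal and dividing cells, was at 13.48, 13.45 and 13.51 with Pbcas4 shRNA and at 13.44, 13.25 and 13.26 with scramble, replicates 1 to 3 in turn. All Pbcas4 shRNA arrays were higher than all scramble arrays, but scramble replicate 1 was only 0.0063 below the lowest of them. The log2 difference was 0.17 (standard error 0.090, 95% interval -0.050 to 0.38, unadjusted p = 0.111 and adjusted p = 0.610 from limma). Permuting the arrays exactly (two-sided) gave p = 0.1, the smallest that 3 arrays against 3 allow. Without scramble replicate 1 the difference was 0.23 (adjusted p = 0.251 from limma). Over all the arrays left out it ranged from 0.13 to 0.23. The second probe of Ptbp1 had the same direction, at 12.92, 12.98 and 13.00 with Pbcas4 shRNA and at 12.86, 12.61 and 12.66 with scramble. Its log2 difference was 0.26 (standard error 0.097, unadjusted p = 0.0340, adjusted p = 0.461 from limma), and its conditions did not overlap either. The genomic position of this second probe was not checked, so it was not taken as separate support.

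Ptbp2, the neuronal paralog, was at 12.32, 11.94 and 11.99 with Pbcas4 shRNA and at 12.42, 12.08 and 12.03 with scramble. The conditions overlapped, with replicate 1 the highest array of each. The log2 difference was -0.098 (standard error 0.15, 95% interval -0.46 to 0.27, adjusted p = 0.920 from limma), and it was 0.025 without scramble replicate 1. Between arrays with the same number, Pbcas4 shRNA minus scramble was -0.11, -0.14 and -0.043. For the balance of the pair, Ptbp2 minus Ptbp1 was taken within each array. This difference of log2 values depends on both probes, and only its shift between conditions can be read. It shifted by -0.26 from scramble to Pbcas4 shRNA, away from the neuronal form, with SDs of 0.11 and 0.20. The conditions overlapped in this measure (-1.17, -1.51 and -1.52 with Pbcas4 shRNA, -1.02, -1.17 and -1.23 with scramble). Between same-numbered arrays it was -0.15, -0.34 and -0.30, negative for each number, and it was not tested.

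The promoters of this pair are shown because their transcripts had opposite directions by mean over all arrays. Neither gene passed the test, and without scramble replicate 1 the difference of Ptbp2 was 0.025. A link of these sequences to the expression values was not tested. Each window holds 250 bases before and 50 bases after a start listed by RefSeq on GRCm38.p6, written on the strand of the gene. For Ptbp1 that start is the first base of the annotated gene, and for Ptbp2 it lies 1259 bases inside the annotated gene, so the stretch around the outermost Ptbp2 start is not shown. Ptbp1 lies at chr10:79854182-79854481 on the plus strand and Ptbp2 at chr3:119783339-119783638 on the minus strand. Capitals mark CACGTG, the palindromic E-box bound by Myc and related factors, which was searched after the expression values were known and is the same on both strands.

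Ptbp1: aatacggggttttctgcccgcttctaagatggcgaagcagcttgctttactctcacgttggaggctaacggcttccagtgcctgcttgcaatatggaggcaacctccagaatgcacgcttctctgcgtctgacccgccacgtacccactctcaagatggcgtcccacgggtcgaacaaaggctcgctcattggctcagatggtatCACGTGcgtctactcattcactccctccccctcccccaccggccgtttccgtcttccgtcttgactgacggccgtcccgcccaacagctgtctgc
Ptbp2: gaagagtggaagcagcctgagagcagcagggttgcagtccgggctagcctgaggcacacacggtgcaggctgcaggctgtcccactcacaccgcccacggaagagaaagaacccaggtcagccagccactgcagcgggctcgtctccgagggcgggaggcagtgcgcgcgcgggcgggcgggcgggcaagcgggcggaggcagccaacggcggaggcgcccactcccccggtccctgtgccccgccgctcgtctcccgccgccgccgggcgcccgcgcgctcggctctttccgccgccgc

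The Ptbp1 window held the motif once, 45 bases before the start, and the Ptbp2 window did not hold it. Of the 10 genes, 9 had at least 1 window in the table and Rbfox2 had none. Among their 17 windows, that of Ptbp1 was the 1 with the motif (5.88%), against 7.15% of 32851 windows of all genes. The Ptbp2 window held 36 CG dinucleotides and that of Ptbp1 held 22, in a range of 4 to 39 over the 17 windows, against a median of 7 in all windows.

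Nova1, a splicing regulator of the brain and spinal cord, had the largest difference of the 10 genes and probes that differed in the size of it. On the brighter probe it was at 10.67, 10.47 and 10.48 with Pbcas4 shRNA and at 10.88, 10.58 and 10.78 with scramble. Pbcas4 shRNA replicate 1 lay above scramble replicate 2, so the conditions overlapped. The log2 difference was -0.21 (standard error 0.11, 95% interval -0.48 to 0.063, unadjusted p = 0.111 and adjusted p = 0.610 from limma, exact permutation p = 0.2), and it was -0.14 without scramble replicate 1. Between same-numbered arrays the difference was -0.21, -0.11 and -0.30, negative for each number. The dimmer probe, which the rule left out, was at 9.09, 9.46 and 9.08 with Pbcas4 shRNA and at 9.71, 9.61 and 10.16 with scramble. Its conditions did not overlap. Its log2 difference was -0.61 (standard error 0.18, 95% interval -1.04 to -0.19), or 0.654-fold on the linear scale, with an unadjusted p of 0.0118 and an adjusted p of 0.401 from limma. It was singled out after its values were seen. Nova2, the paralog of the neocortex, was at 9.81, 10.10 and 9.96 with Pbcas4 shRNA and at 9.80, 9.88 and 10.01 with scramble. These overlapped almost wholly (log2 difference 0.060 with a standard error of 0.11, limma adjusted p = 0.935), and without scramble replicate 1 the difference was 0.012.

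**Figure D2:**
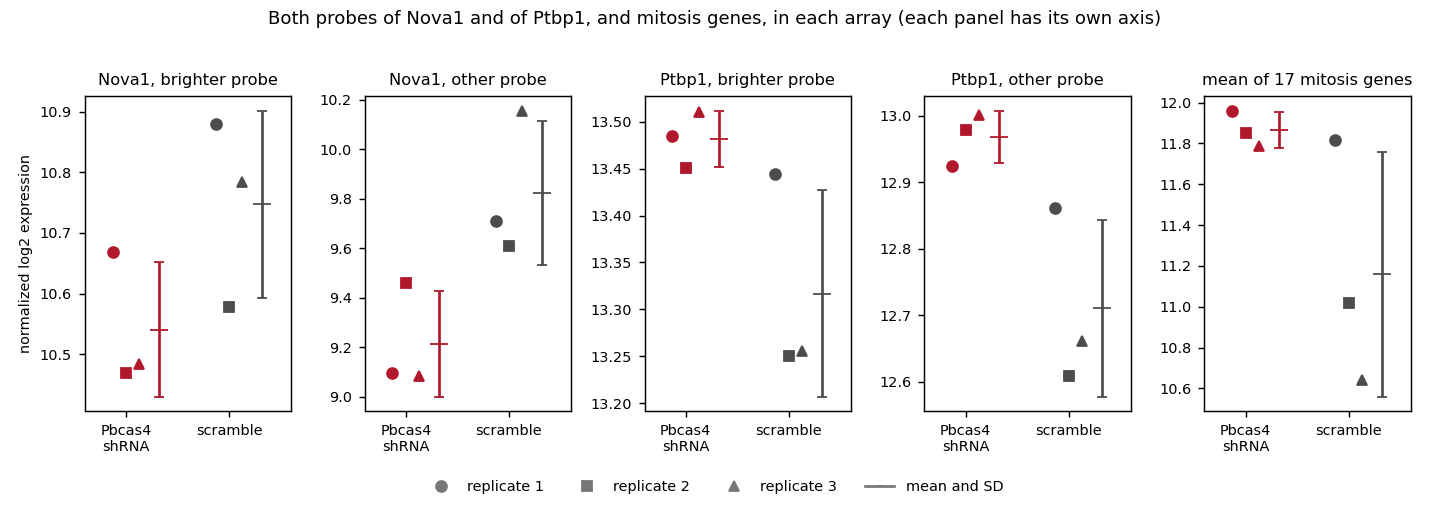
Normalized log2 expression in each array of the 2 probes of Nova1, the 2 probes of Ptbp1 and the mean of 17 mitosis genes, with an own axis per panel; symbols are arrays and bars each condition's mean with its SD. Both Nova1 probes have the lower mean with Pbcas4 shRNA (-0.21 and -0.61) and both Ptbp1 probes the higher (0.17 and 0.26), and scramble replicate 1 lies near the Pbcas4 shRNA arrays for Ptbp1 and for mitosis.

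Elavl1 (HuR), the member of its family found in all cell types, was at 13.09, 13.23 and 13.19 with Pbcas4 shRNA and at 13.15, 13.09 and 13.04 with scramble. Pbcas4 shRNA replicates 2 and 3 were above all scramble arrays and replicate 1 was not. The log2 difference was 0.076 (standard error 0.085, 95% interval -0.13 to 0.28, adjusted p = 0.867 from limma). It was 0.11 without scramble replicate 1 and 0.15 without both arrays numbered 1. The neuronal members went different ways from each other by mean. Elavl2 (HuB) was at 11.38, 11.04 and 10.95 with Pbcas4 shRNA and at 11.13, 10.95 and 10.93 with scramble (log2 difference 0.12, standard error 0.14). Elavl4 (HuD), which stabilizes mRNAs of neurite outgrowth, was at 11.30, 10.95 and 10.94 and at 11.07, 11.01 and 10.88 (log2 difference 0.075, standard error 0.13). For both genes a single array, Pbcas4 shRNA replicate 1, was clearly the highest. Without it the differences were -0.0097 for Elavl2 and -0.044 for Elavl4, and without scramble replicate 1 they were 0.18 and 0.12. Elavl3 (HuC), an early marker of postmitotic neurons, was at 11.81, 12.24 and 12.02 with Pbcas4 shRNA and at 11.88, 12.24 and 12.24 with scramble (log2 difference -0.096, standard error 0.15). Without Pbcas4 shRNA replicate 1 it was 0.011, and without scramble replicate 1 it was -0.22. The mean of the neuronal members minus Elavl1 shifted by -0.043 from scramble to Pbcas4 shRNA, and was not tested. The SDs were 0.16 and 0.063. The shift was -0.13 without Pbcas4 shRNA replicate 1 and -0.17 without both arrays numbered 1, beyond the scramble SD, and between same-numbered arrays it was 0.20, -0.13 and -0.20.

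Rbfox2, a splicing regulator of neurons, muscle and epithelia, was the steadiest of the 10 genes. It was at 11.74, 11.79 and 11.71 with Pbcas4 shRNA and at 11.70, 11.70 and 11.76 with scramble. Its SD within conditions stood at the 2.09th percentile of all genes, and its log2 difference was 0.029 (95% interval -0.16 to 0.22), or 0.018 without scramble replicate 1. Rbfox3 was at 7.44, 7.33 and 7.23 with Pbcas4 shRNA and at 7.16, 7.29 and 7.42 with scramble, with full overlap (log2 difference 0.043, 95% interval -0.21 to 0.29). Without scramble replicate 1 its difference was -0.021. Rbfox1, the family's neuronal and muscle member, is outside the 10 genes and had a log2 difference of 0.13 (standard error 0.15, adjusted p = 0.864 from limma).

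**Figure D3:**
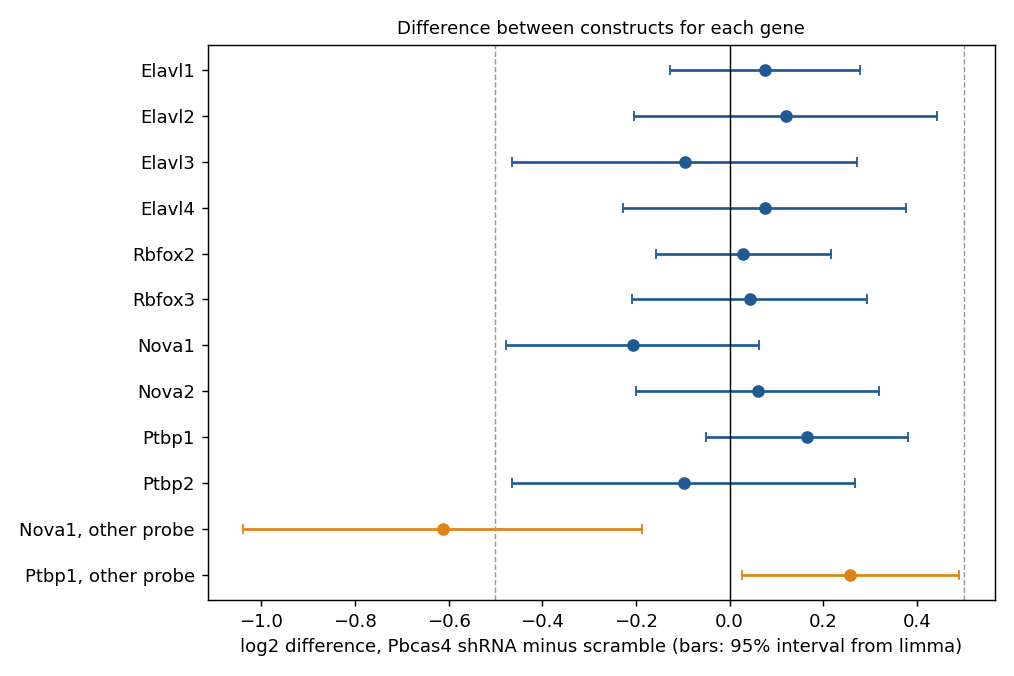
Log2 difference, Pbcas4 shRNA minus scramble, for the 10 genes (blue) and the second probes of Nova1 and Ptbp1 (orange); bars are 95% intervals from limma and dashed lines mark 0.5 on either side of 0. All 10 blue intervals hold 0 and lie inside the dashed lines, while the second probe of Nova1 reaches from -1.04 to -0.19.

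Among these genes the arrays numbered 1 often stood at 1 end of both conditions. Replicate 1 was the highest array of both conditions for Elavl2, Elavl4, Nova1 and Ptbp2, and the lowest of both for Elavl3 and Nova2, which makes 6 of 10 genes (60%) against 37.9% of all genes. For the arrays numbered 2 and 3 the same was counted for 3 and 2 of the genes, against 19.3% and 17.3% of all genes. Some of the 10 genes varied together over the 6 arrays, such as Elavl2 with Elavl4 (r = 0.951) and Nova2 with Ptbp2 (r = -0.891). They are therefore not separate counts, and the shares were not tested. Ptbp2 in replicate 1 was 0.36 above the mean of replicates 2 and 3 with Pbcas4 shRNA and 0.37 above it with scramble. Elavl3 in replicate 1 differed from it by -0.32 with Pbcas4 shRNA and by -0.36 with scramble. For both genes the distance was larger than the difference between the constructs (-0.098 and -0.096). Ptbp1 did not share the pattern, at 0.0046 above with Pbcas4 shRNA and 0.19 above with scramble. The labels do not say what the numbers stand for.

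**Figure D4:**
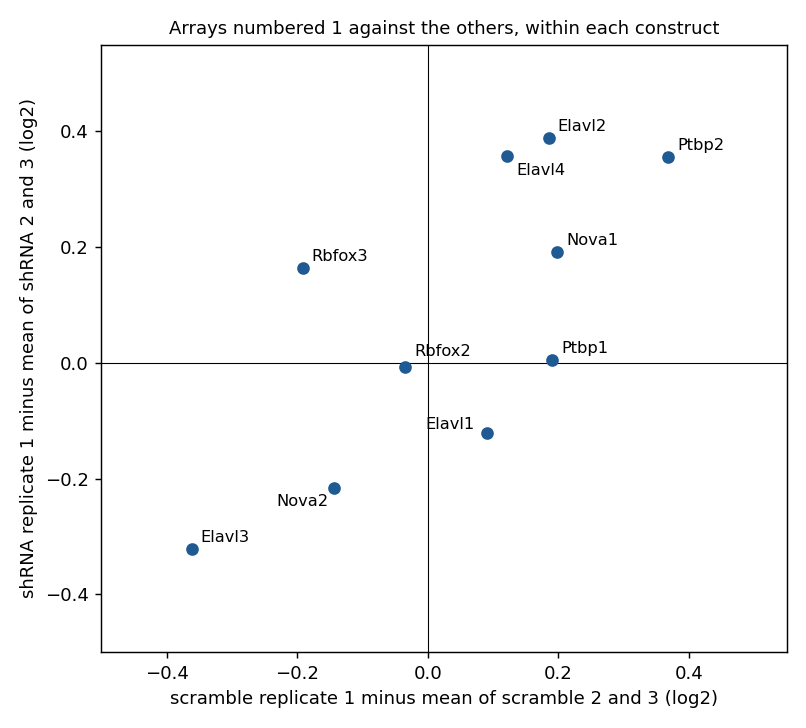
For each of the 10 genes, scramble replicate 1 minus the mean of scramble replicates 2 and 3 (horizontal) and the same for the Pbcas4 shRNA arrays (vertical), in log2 units. Ptbp2 (0.37 and 0.36) and Elavl3 (-0.36 and -0.32) lie at opposite ends along the diagonal, and Ptbp1 (0.19 and 0.0046) lies off it.

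Other regulators of splicing and mRNA fate were taken as lists, of which 0 genes passed the test over all genes. All lists, here and below, were chosen with earlier results of these data known, so their shares are description only. Of 14 other neuronal splicing regulators, 9 had a lower mean with Pbcas4 shRNA, with a median log2 difference of -0.13. At an unadjusted p under 0.05 there were 2 (14.3%), both lower, against 11.7% of all genes, and 3 (21.4%) had conditions that did not overlap, against 16.8% of all genes. The list is named for its neuronal members, but Ptbp3, Mbnl1 and Qk in it are known from other tissues too. Mbnl2, a muscleblind protein of maturing brain, was at 12.12, 12.19 and 12.04 with Pbcas4 shRNA and at 12.44, 12.67 and 12.80 with scramble (log2 difference -0.52 with a standard error of 0.12, limma adjusted p = 0.359). Celf3, a brain CELF protein, had a log2 difference of -0.28 (standard error 0.11, adjusted p = 0.483 from limma). Neither gene's conditions overlapped, but for Celf3 the closest arrays of the conditions, both numbered 3, differed by only -0.013. Srrm4, which activates neuronal microexons and opposes PTB repression, was at 10.11, 10.58 and 10.41 with Pbcas4 shRNA and at 10.63, 10.64 and 10.71 with scramble. Its conditions did not overlap (log2 difference -0.29 with a standard error of 0.13, limma adjusted p = 0.516). Celf2 (6.47 with Pbcas4 shRNA and 6.62 with scramble), Khdrbs2 (6.04 and 6.03) and Khdrbs3 (7.12 and 7.10) were dimmer than Rbfox3. The median of the list ranged from -0.16 to -0.056 when arrays were left out. It was -0.19 with only the probes brighter than the median probe. Ptbp3, a PTB paralog best known from blood cells, had a log2 difference of -0.085 (standard error 0.12).

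Of 29 broadly expressed splicing factors, 28 had a higher mean with Pbcas4 shRNA, against 10171 of all 19938 genes, with a median log2 difference of 0.18. At an unadjusted p under 0.05 there were 2 (6.90%), a smaller share than the 11.7% of all genes. These were the SR proteins Srsf4 (log2 difference 0.43, standard error 0.11) and Srsf9 (0.47, standard error 0.15), with adjusted p-values of 0.389 and 0.421 from limma. Ptbp1 had a difference of like size to this list's median. The list mean was 12.00, 11.79 and 11.84 with Pbcas4 shRNA and 11.89, 11.62 and 11.53 with scramble, so that the conditions overlapped. The median was 0.31 without scramble replicate 1, 0.11 without scramble replicate 3 and 0.12 without Pbcas4 shRNA replicate 1. A list of 17 mitosis genes, among them Plk1, Aurka, Tpx2 and Cenpf, had the same order of scramble arrays. Its mean was 11.96, 11.85 and 11.79 with Pbcas4 shRNA and 11.82, 11.02 and 10.64 with scramble, so that the conditions overlapped. All 17 genes had a higher mean with Pbcas4 shRNA, and the median log2 difference was 0.73. At an unadjusted p under 0.05 from limma there were 10 of 17 (58.8%), against 11.7% of all genes, and 0 were called after adjustment. The median of the mitosis list was 1.08 without scramble replicate 1 and 0.47 without scramble replicate 3. The smallest p-values belonged to the kinetochore gene Cenpf (log2 difference 0.82), the mitotic kinase genes Plk1 (0.77) and Aurka (0.78) and the spindle gene Tpx2 (0.71), with standard errors of 0.24 to 0.27. Over the 6 arrays Ptbp1 correlated with the mitosis list mean at r = 0.945, the highest of the 10 genes. Elavl1 followed at 0.716, and Elavl3 was lowest at -0.673. The part of cell division in the values of Ptbp1 and of the splicing factors was not tested. The genes most like Ptbp1 over the 6 arrays were Gnl3 (r = 0.9999), Ppid (r = 0.999) and Farsa (r = 0.998), and those most like Nova1 were Sorcs1 (r = 0.979), Adh6a (r = 0.977) and Foxn2 (r = 0.970), which were the 3 highest of the 19937 genes compared with each.

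Of 30 regulators of mRNA stability and translation, 22 had a higher mean with Pbcas4 shRNA (median log2 difference 0.10), and 6 (20%) were below an unadjusted p of 0.05, 4 higher and 2 lower, against 11.7% of all genes. The cytoplasmic polyadenylation proteins had values in both directions: Cpeb3 was at 8.24, 8.75 and 8.24 against 7.77, 7.47 and 7.69 (log2 difference 0.77, standard error 0.17), and Cpeb4 was at 10.81, 10.94 and 10.57 against 11.28, 11.45 and 11.63 (log2 difference -0.68, standard error 0.14). Cpeb1 had a log2 difference of -0.42 (standard error 0.11), and Fxr2, a relative of the fragile X protein, of 0.32 (standard error 0.11). Their adjusted p-values were 0.348 to 0.431 from limma.

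Transcripts known to be handled by the 4 families were counted for the level on 1 probe per gene, since exons were not resolved. For comparison, 9767 of all 19938 genes had a lower mean with Pbcas4 shRNA, and 11.7% were below an unadjusted p of 0.05. As these lists too were chosen with earlier results known, the comparison is description only. Of 13 mRNAs bound by Elavl proteins, 8 had a lower mean with Pbcas4 shRNA (median log2 difference -0.17), and 4 (30.8%) were below an unadjusted p of 0.05, 3 of them lower. Ache, acetylcholinesterase, was at 9.15, 10.29 and 9.79 with Pbcas4 shRNA and at 10.67, 11.86 and 11.77 with scramble (log2 difference -1.69 with a standard error of 0.40, limma adjusted p = 0.363). Its conditions did not overlap. Nrn1, the neurite-promoting neuritin, had a log2 difference of -0.69 (standard error 0.13, adjusted p = 0.344 from limma), the growth cone protein Gap43 one of -0.39 (standard error 0.16) and the immediate early gene Fos one of 0.34 (standard error 0.12). Of 11 transcripts with PTB-controlled exons, 7 had a lower mean and 1 (9.09%, no larger a share than over all genes) was below an unadjusted p of 0.05: Gabbr1, a GABA-B receptor subunit, was at 10.53, 10.79 and 10.67 against 11.02, 11.72 and 11.88 (log2 difference -0.88 with a standard error of 0.23, limma adjusted p = 0.383). Of 8 transcripts with Nova-controlled exons, 7 had a lower mean and 0 were below an unadjusted p of 0.05. The largest differences were -0.57 for Agrn, agrin (standard error 0.33), and -0.31 for Cacna1b, a presynaptic calcium channel. Of 5 transcripts with Rbfox-controlled exons, 3 had a lower mean and 1 (20% of so short a list) was below an unadjusted p of 0.05, the transcription factor gene Mef2a (log2 difference -0.32, standard error 0.12). When single arrays or both arrays numbered 1 were left out, the medians ranged from -0.26 to -0.053 for the Elavl list, from -0.096 to -0.0011 for the PTB list, from -0.20 to -0.069 for the Nova list and from -0.27 to 0.030 for the Rbfox list. With only the probes brighter than the median probe, the medians of these 4 lists were -0.28, -0.057, -0.17 and -0.067 in that order. Markers of neuroblastoma and sympathoadrenal cells were mostly lower too, 10 of 12 by mean. Their median log2 difference was -0.20, and -0.29 with only the brighter probes. The part of these markers in the values of the lists was not tested.

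**Figure D5:**
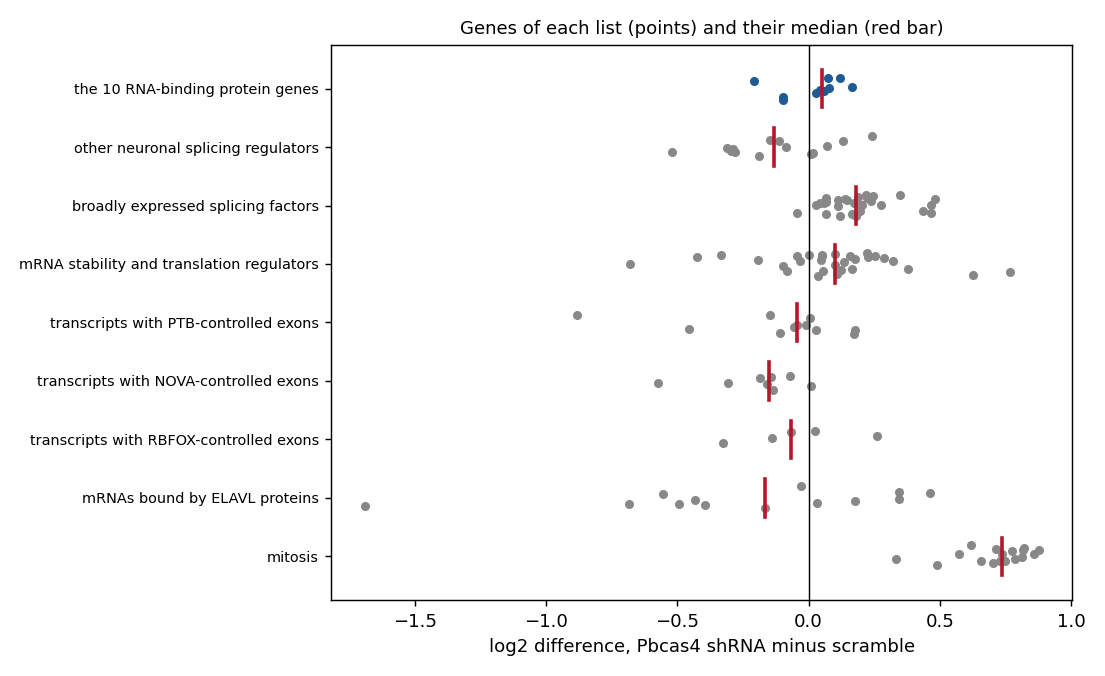
Log2 difference, Pbcas4 shRNA minus scramble, of each measured gene (points, spread vertically at random within a row) in the 10 RNA-binding protein genes and in 8 other lists, with the list median as a red bar. The 10 genes lie between -0.21 and 0.17, the broadly expressed splicing factors have a median of 0.18, and the mitosis genes one of 0.73.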

How the data were processed

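Total RNA of N2A cells was measured with Affymetrix Mouse Gene 1.0 ST arrays, 3 per construct. The deposited values are on the log2 scale, 1 per probe, and were normalized by the authors by a method not given in the sources used here (array medians 7.75 to 7.86). No further normalization was applied. Probes were named from GEO's platform annotation: of 35556 probes, 21789 had 1 symbol, 1621 several and 12146 none. Limma 3.58.1 in R 4.3.3 (lmFit, eBayes) compared the constructs in a two-sided test, and p-values were adjusted (Benjamini-Hochberg) across the 35556 probes. The criterion of a variance between conditions over 0.5 was read as a log2 difference over 0.5. Single genes were also put through exact permutation tests. The fit was tested on simulated data.

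The 10 genes and all lists were chosen with earlier results of these data known. Of 189 symbols in the other lists, 171 were measured, 1 through a RefSeq synonym. Named are the 10 genes, Rbfox1, Ptbp3 and Srrm4, up to 4 genes per list with the smallest unadjusted p under 0.05 (otherwise the 2 largest differences), and the 3 genes most correlated with each of the 2 genes of largest difference; other genes were chosen after their values were seen. After the condition means were taken off, same-numbered arrays correlated at 0.291, 0.137 and 0.103 over probes, all above the 0.1 set for trying the numbers as pairs. But Pbcas4 shRNA replicate 2 and scramble replicate 3 correlated at 0.199, above 0.137 and 0.103. The pairing is therefore uncertain, and differences between same-numbered arrays are description only. A fit with the number as a block was added. The p-values measure the spread between transfections only, and 3 arrays per construct limit the precision. Other alternatives were quantile normalization, median centring, a trended and robust variance, array weights, bright probes alone, averaging all probes of a gene, no size criterion, leaving out each array and leaving out both arrays numbered 1. Promoter windows and hairpin arms came from RefSeq's GRCm38.p6 and the study's list of oligonucleotides. Figures were drawn with matplotlib 3.10.9.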

Additional observations from a re-analysis of the deposited data

How the results depend on the processing

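Limma called 0 of the 10 genes in any of the alternatives run. With array weights, whose estimation did not converge, 1320 genes were called and 30 of them were on the lists, against 0 in the other alternatives; Pbcas4 shRNA replicate 3 then weighed 5.32, scramble replicate 2 weighed 2.39 and the other arrays 0.353 to 0.875. Ptbp1 then had an adjusted p of 0.0514 and a log2 difference of 0.23, and Elavl4 (-0.021) and Rbfox3 (-0.055) turned sign. The number of the 10 genes at an unadjusted p under 0.05 was 1 with a trended and robust variance and with array weights (Ptbp1 in both), 1 with the mean of all probes of a gene (Nova1, log2 difference -0.41, adjusted p = 0.401) and 0 to 1 when arrays were left out (Ptbp1 without scramble replicate 1, Nova1 without scramble replicate 2). The number of all genes at this limit was 2329, and 1062 to 6505 over the alternatives. With the replicate number as a block, 0 genes were called. The lowest adjusted p from limma was then 0.230 over the genes, but 0.0174 over all probes, those not used for a gene included. It was 0.473 for Nova1, 0.601 for Ptbp1 and 0.750 or more for the rest of the 10. The block changed no call among the genes. When arrays were left out, 1 to 4 of the 10 genes had conditions that did not overlap, but so had 21.0% to 55.5% of all genes (the 4 without Pbcas4 shRNA replicate 1 stood beside 28.9%, and the 4 without both arrays numbered 1 beside 55.5%). Log2 differences spanned 0 for Elavl2 (-0.0097 to 0.21), Elavl3 (-0.22 to 0.011), Elavl4 (-0.044 to 0.14), Rbfox3 (-0.075 to 0.11), Nova2 (-0.010 to 0.13) and Ptbp2 (-0.22 to 0.025), but not for Ptbp1 (0.13 to 0.23), Nova1 (-0.29 to -0.14), Elavl1 (0.048 to 0.15) or Rbfox2 (0.0065 to 0.051). Without both arrays numbered 1, the neuronal Elavl genes minus Elavl1 shifted by -0.17, against -0.17 to 0.019 over all arrays left out. The cause of these changes was not tested.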
